A study of Mus musculus with 13 samples.

Results

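Genes that carry iron into cells, store it, release it or sense it were followed in aortic endothelial cells (ECs) and heart tissue of Hmox2-/- mice, which lack heme oxygenase 2, and of Hmox2+/+ mice. The 10 genes were taken by name and not by a threshold, though with earlier results of these data known, and all 10 were among the 36109 genes listed. They were Tfrc, Slc11a2 and Slc39a14 for uptake, Fth1, Ftl1 and Ncoa4 for storage, Slc40a1 and Hamp for export, and Aco1 and Ireb2 for sensing. RNA was sequenced in 13 libraries, from ECs of 3 Hmox2+/+ (WT) and 3 Hmox2-/- (KO) samples and from hearts of 4 WT and 3 KO samples. WT mice were littermates, all mice were kept in room air, and the deletion was present in all cells and not limited to 1 cell type. EC RNA was obtained by flushing a lysis reagent through the aortic lumen, heart RNA came from powdered whole hearts, and the 2 tissues were extracted with different kits, so tissue and kit cannot be told apart. The series calls the ECs and hearts matched, but which samples came from the same mouse is not given in the labels, so tests that set hearts against ECs treated all libraries as independent. The p-values measure the spread between the numbered samples, which may be partly technical. The sequenced mice were young, with no exact age given for them, and their sex was not stated.

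Heme oxygenases break down heme and release its iron, carbon monoxide and biliverdin. Cells take up transferrin-bound iron through the transferrin receptor, store it in ferritin shells built of heavy and light chains, and release it through ferroportin, which the liver hormone hepcidin removes from the membrane. Iron regulatory proteins bind a hairpin in the mRNA, the iron-responsive element, when iron is low. Bound in the 5′ untranslated region (UTR), they block translation, and bound in the 3′ UTR, they protect the mRNA from decay. Changes in ferritin protein can therefore occur with no change in ferritin mRNA, and only mRNA was measured here.

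The hairpin ties 5 of the 10 genes to 1 regulatory system, so its sequence in each is shown. Transcripts of the GENCODE M39 reference (GRCm39) were searched on the sense strand for a C, 5 bases, the loop CAGTGN and 5 bases that pair with the first 5, with G-T pairs allowed. Capitals mark the 6-base loop, and each sequence of 29 bases is read 5′ to 3′ along the mRNA.

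Tfrc, 3′ UTR, site 1: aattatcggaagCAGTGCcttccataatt
Tfrc, 3′ UTR, site 2: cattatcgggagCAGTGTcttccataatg
Tfrc, 3′ UTR, site 3: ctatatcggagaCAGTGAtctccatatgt
Tfrc, 3′ UTR, site 4: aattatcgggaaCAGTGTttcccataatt
Fth1, 5′ UTR: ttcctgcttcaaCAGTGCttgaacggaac
Ftl1, 5′ UTR: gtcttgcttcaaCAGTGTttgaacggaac
Slc40a1, 5′ UTR: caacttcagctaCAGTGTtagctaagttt
Slc11a2, 3′ UTR of 1 transcript form: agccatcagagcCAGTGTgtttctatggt

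The 4 Tfrc sites lay at chr16:32450037-32450065, chr16:32450416-32450444, chr16:32450481-32450509 and chr16:32450528-32450556 on the plus strand. The Fth1 site lay at chr19:9960096-9960124 on the plus strand. On the minus strand, the Ftl1 site lay at chr7:45109203-45109231, the Slc40a1 site at chr1:45964625-45964653 and the Slc11a2 site at chr15:100293034-100293062. The Slc11a2 hairpin was found only when 1 of the 5 pairs was allowed to be unpaired. The fully paired motif occurred in a UTR of 0.892% of 21534 protein-coding genes, and the motif with 1 unpaired position in a UTR of 6.44%. These letters were not found in the listed transcripts of Slc39a14, Ncoa4, Hamp, Aco1 or Ireb2.

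Depth was similar in all but 1 library. Summed estimated counts were between 26067147 and 31619776 in 12 libraries and 7268626 in heart WT 1. Levels are given as CPM (counts relative to library total, scaled between libraries of 1 tissue by TMM) for comparisons of genotypes, and as TPM (transcript share of a library, which corrects for transcript length) for comparisons between genes. Hmox2 itself was 63.9 to 76.2 CPM in WT ECs and 12.6 to 14.7 CPM in KO ECs, and 37.3 to 42.5 CPM in WT hearts and 7.53 to 8.90 CPM in KO hearts. The defining endothelial markers were all present in the EC libraries and summed to 3097 to 6542 CPM. But the same libraries held adipocyte markers at 4172 to 6652 CPM, fibroblast markers at 2334 to 6613 CPM and smooth muscle markers at 1060.1 to 6428 CPM. They also held erythroid markers at 1909 to 3681 CPM and macrophage markers at 487 to 1336 CPM. Mitochondrially encoded genes took 37.6% to 44.3% of counts in WT hearts and 22.5% to 27.2% in KO hearts, and TPM, unlike TMM-scaled CPM, is not adjusted for that.

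Ferritin mRNA was by far the most abundant of the 10 in each tissue. In WT hearts Fth1, the ferritin heavy chain, was at 1186 ± 123 TPM and Ftl1, the light chain, at 153 ± 19.8 TPM (SD, n = 4). Ncoa4, which carries ferritin to the lysosome for breakdown, followed at 24.6 ± 2.38 TPM and Tfrc, the transferrin receptor, at 20.5 ± 6.96 TPM, and these ranges overlapped. The zinc and iron importer Slc39a14 (8.91 ± 0.897 TPM), Aco1 (8.18 ± 1.83 TPM), Ireb2 (6.79 ± 0.328 TPM), ferroportin Slc40a1 (6.51 ± 0.877 TPM) and the divalent metal transporter Slc11a2 (5.94 ± 0.884 TPM) were closely spaced. In WT ECs Fth1 was at 2938 ± 419.8 TPM, Ftl1 at 1626 ± 325 TPM, Ncoa4 at 61.0 ± 16.1 TPM and Aco1 at 46.3 ± 14.2 TPM (SD, n = 3). Tfrc (9.57 ± 3.38 TPM), Slc11a2 (7.86 ± 1.08 TPM), Ireb2 (7.65 ± 1.82 TPM), Slc39a14 (5.60 ± 0.545 TPM) and Slc40a1 (5.38 ± 3.73 TPM) followed with overlapping neighbours. Hamp, which encodes hepcidin, averaged 0.139 TPM in WT hearts and 0.703 TPM in WT ECs, from at most 16 counts in any library.

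Wild-type hearts and wild-type ECs differed in 8 of the 9 genes that could be tested. Relative to ECs, hearts held more Tfrc (4.09-fold, adjusted p = 3.41e-04), Slc39a14 (2.91-fold, adjusted p = 1.67e-06), Slc11a2 (1.76-fold, adjusted p = 4.87e-04) and Ireb2 (1.75-fold, adjusted p = 5.46e-05) by edgeR's quasi-likelihood test. ECs held more Ftl1 (5.56-fold, adjusted p = 8.94e-08), Aco1 (3.01-fold, adjusted p = 4.00e-05), Fth1 (1.30-fold, adjusted p = 0.0456) and Ncoa4 (1.27-fold, adjusted p = 0.0351) by the same test. Slc40a1 was 2.12-fold higher in hearts and did not pass (adjusted p = 0.0540). Of all 14777 genes tested, 32.5% were called higher and 35.4% lower in hearts, so a call in this comparison was common. In bulk RNA fewer cells of a type and less RNA per cell cannot be told apart. The Fth1 and Ncoa4 calls were each lost under 8 of 17 alternatives (adjusted p up to 0.460 and 0.146). Among these, the Fth1 call was lost without heart WT 1, WT 2 or WT 3 or EC WT 1 or WT 2, and the Ncoa4 call without any 1 heart library or EC WT 2. Without EC WT 1 the Slc40a1 log2 fold change was 2.08 (adjusted p = 1.08e-05), and it passed under 5 of 17 alternatives. By library size alone Slc11a2 was at 0.02 (adjusted p = 0.911) and Ireb2 at -0.0046 (adjusted p = 0.977). By TPM the order of both was the opposite, with the mean higher in ECs, so the direction for Slc11a2 and Ireb2 depended on the scaling. With an offset for length and GC content the Fth1 difference changed sign to a log2 value of 0.13. Only tissue and extraction kit together were compared.

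Ferritin mRNA was higher in KO hearts than in WT hearts. Ftl1 was at 127, 137, 123 and 139 CPM in the 4 WT hearts and at 327, 314 and 238 CPM in the 3 KO hearts. Fth1 was at 888, 937, 962 and 1116 CPM in the WT hearts and at 1793, 1637 and 1309 CPM in the KO hearts. Each KO heart lay above each WT heart for both chains, and KO 3 was the lowest of the KO hearts for both. Ftl1 rose 2.22-fold (log2 fold change 1.15, SE 0.12, adjusted p = 8.08e-05) and Fth1 1.62-fold (0.69, SE 0.13, adjusted p = 0.00264) by edgeR's quasi-likelihood test. Ftl1 was the only 1 of the 10 genes to pass a log2 fold change of 1 as well, which 2.66% of genes did in this direction.

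Both ferritin calls held under all 18 alternatives (adjusted p up to 0.00356 for Ftl1 and 0.0197 for Fth1), but their size varied. Short transcripts as a class were higher in KO hearts: the median log2 fold change was 0.37 in the shortest of 5 equal groups of genes and -0.32 in the longest. Ftl1 stood at percentile 5.46 of length and Fth1 at percentile 10.3. With an offset for length and GC content the Ftl1 log2 fold change was 0.70 (adjusted p = 7.81e-05) and the Fth1 value 0.34 (adjusted p = 0.0197). Summed macrophage markers were at 154 to 226 CPM in WT hearts and 249 to 421 CPM in KO hearts, with 5 of 10 higher, and none of the 10 was at 0. Summed erythroid markers were at 217 to 373 CPM in WT and 906 to 1468 CPM in KO hearts, with 5 of 6 tested higher and 1 lower, and no listed one was at 0. The part of macrophage or blood RNA in the ferritin values was not tested.

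Ncoa4 and Slc39a14 were also higher in KO hearts. Slc39a14, which imports iron not bound to transferrin, was at 37.3, 35.5, 42.8 and 36.0 CPM in WT and at 46.3, 49.8 and 53.6 CPM in KO hearts. Ncoa4 was at 68.9, 76.9, 80.2 and 75.3 CPM in WT and at 91.2, 93.5 and 87.3 CPM in KO hearts. The genotypes did not overlap for either gene. Slc39a14 rose 1.31-fold (log2 fold change 0.39, SE 0.10, adjusted p = 0.0129) and Ncoa4 1.20-fold (0.26, SE 0.09, adjusted p = 0.0389) by edgeR's quasi-likelihood test. The Ncoa4 call was lost under 9 of 18 alternatives, among them the omission of heart WT 1 (adjusted p = 0.107), WT 2 (0.0625), WT 3 (0.0571), WT 4 (0.0908) or KO 2 (0.139). The Slc39a14 call was lost only when length-scaled TPM replaced the counts (log2 fold change 0.31, adjusted p = 0.0945; range over 18 alternatives 4.38e-04 to 0.0945).

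Ireb2, which encodes the iron-sensing protein IRP2, was lower in KO hearts. It was at 39.1, 39.6, 44.9 and 42.2 CPM in WT and at 21.0, 28.3 and 34.5 CPM in KO hearts, and the genotypes did not overlap. It was 1.49-fold lower in KO hearts (log2 fold change -0.57, SE 0.15, adjusted p = 0.0133 by edgeR's quasi-likelihood test). Its transcripts were among the longest and poorest in GC of those tested, at percentile 87.2 of length and 2.24 of GC. With an offset for length and GC content the value was -0.07 (adjusted p = 0.621), and by library size alone it was -0.30 (adjusted p = 0.114), the range over 18 alternatives being 0.00112 to 0.621. On the TPM scale the genotypes overlapped, at 6.50 to 7.25 in WT and 4.03 to 7.54 in KO hearts.

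The other 4 tested genes did not pass in the heart. Tfrc was at 125, 121, 97.6 and 61.3 CPM in WT and at 90.5, 74.7 and 86.2 CPM in KO hearts, so that the KO values lay inside the WT range. KO hearts stood at -0.27 relative to WT on the log2 scale (SE 0.20, adjusted p = 0.327 by edgeR). Without WT 4, the lowest WT heart, this was -0.45 (adjusted p = 0.0299, with 0.0299 to 0.980 over 18 alternatives). Slc40a1 was at 25.3, 16.6, 26.1 and 23.5 CPM in WT and at 19.2, 30.1 and 25.7 CPM in KO hearts, with a log2 fold change of 0.14 (SE 0.18). Aco1, the cytosolic aconitase that becomes IRP1 when it loses its iron-sulfur cluster, was at 34.1, 37.4, 28.1 and 29.3 CPM in WT and at 32.3, 35.6 and 37.5 CPM in KO hearts (0.13, SE 0.12), and by library size alone its value was 0.39 (adjusted p = 0.0372, the lowest of 18 alternatives, which reached 0.978). Slc11a2 was at 19.8, 24.2, 20.9 and 19.3 CPM in WT and at 16.9, 23.7 and 22.1 CPM in KO hearts (-0.02, SE 0.13), and the genotypes overlapped for all 4 genes.

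In all, 4 of the 9 tested genes were called higher and 1 lower in KO hearts, where 17.2% of all 13816 genes were called higher and 16.2% lower. Their median log2 fold change was 0.14 beside -0.01 over all genes. The genotypes did not overlap for 5 of the 9, beside 40.4% of all genes. By library size alone, without TMM scaling, the median over all genes rose to 0.26 and 84.4% of called genes were higher, beside 51.5% with TMM.

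**Figure D1:**
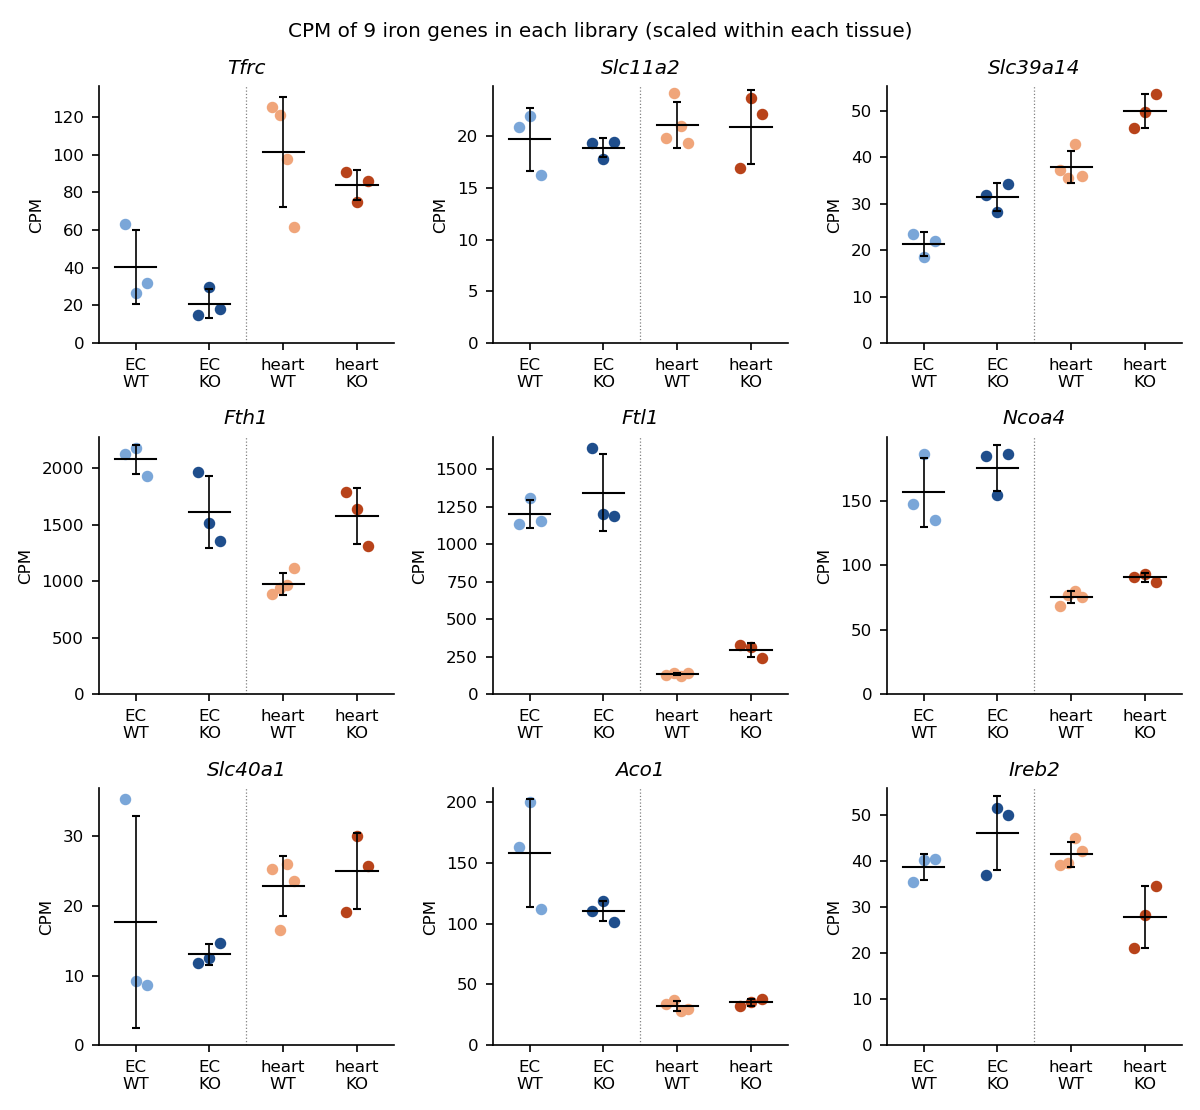
CPM of 9 iron genes in each library (points), by tissue and genotype, with the group mean (line) and SD (bar) and a linear axis from 0; EC and heart values were scaled separately, so heights are comparable only within a tissue. Ftl1 and Fth1 in KO hearts sit above all WT hearts, Ireb2 in KO hearts below them, and Slc39a14 in KO samples above WT in both tissues.

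ECs gave 1 call among the 9 tested genes. Slc39a14 was at 23.5, 18.5 and 22.0 CPM in WT ECs and at 31.98, 28.1 and 34.3 CPM in KO ECs. The genotypes did not overlap, and the gene rose 1.47-fold (log2 fold change 0.56, SE 0.13, adjusted p = 0.0304 by edgeR's quasi-likelihood test). The call was lost without EC WT 2 (adjusted p = 0.0696), KO 1 (0.0718), KO 2 (0.0568) or KO 3 (0.101, the highest of 17 alternatives), while the log2 value stayed between 0.46 and 0.64 in these. Of all 15301 genes tested, 10% were called higher and 8.06% lower, and the genotypes did not overlap in 40.7% of genes, beside 1 of these 9. The median log2 fold change of the 9 was -0.06, beside -0.02 over all genes.

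Tfrc and Aco1 had lower means in KO ECs, and neither passed after adjustment. Tfrc was at 63.0, 26.7 and 31.95 CPM in WT and at 15.1, 29.6 and 18.0 CPM in KO ECs. Only KO 2 reached into the WT range. The 1.94-fold difference (log2 fold change -0.96, SE 0.37) had an adjusted p of 0.108 by edgeR, and it passed with DESeq2 (0.0391), with all 13 libraries in 1 fit (0.0378) and with an offset for length and GC content (0.0212), out of 17 alternatives that gave 0.0212 to 0.293. Under that offset its size was -1.82. Aco1 was at 163, 201 and 112 CPM in WT and at 110.4, 118 and 102 CPM in KO ECs. The difference was -0.53 on the log2 scale (SE 0.21, adjusted p = 0.115 by edgeR). It passed without EC WT 3, the lowest WT library (-0.73, adjusted p = 0.0164), and with all 13 libraries in 1 fit (-0.56, adjusted p = 0.0304), out of 17 alternatives that gave 0.0164 to 0.292.

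The ferritin chains did not pass in ECs. Fth1 was at 2129, 2179 and 1929 CPM in WT and at 1967, 1514 and 1352 CPM in KO ECs (log2 fold change -0.37, SE 0.22, adjusted p = 0.261 by edgeR). Ftl1 was at 1137, 1309.9 and 1155 CPM in WT and at 1639.7, 1201 and 1188 CPM in KO ECs (0.16, SE 0.20, adjusted p = 0.596 by edgeR). KO 1 was the highest KO library for both chains, and without it the Ftl1 value was -0.01. Ncoa4 was at 148, 187 and 135 CPM in WT and at 185, 155 and 187 CPM in KO ECs (0.16, SE 0.16), with overlapping ranges.

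A single library set the value of Slc40a1 in ECs. Slc40a1, the only known cellular iron exporter, was at 35.3, 9.16 and 8.65 CPM in WT and at 11.9, 12.5 and 14.7 CPM in KO ECs. EC WT 1 was higher than all the others, and it was also the highest EC library for Tfrc and for summed smooth muscle markers (6428 CPM). The log2 fold change was -0.44 (SE 0.52, adjusted p = 0.571 by edgeR), and without EC WT 1 it was 0.55 (adjusted p = 0.0883, the lowest of 17 alternatives, which reached 0.881). Slc11a2 was at 20.9, 21.9 and 16.3 CPM in WT and at 19.4, 17.8 and 19.5 CPM in KO ECs (-0.06, SE 0.14). Ireb2 was at 35.6, 40.3 and 40.4 CPM in WT and at 36.9, 51.6 and 50.0 CPM in KO ECs (0.25, SE 0.15, adjusted p = 0.266 by edgeR). With an offset for length and GC content the Ireb2 value turned to -0.87 (adjusted p = 0.00982, the lowest of 17 alternatives, which reached 0.572), and the median log2 fold change in ECs ran from 0.31 in the poorest of 5 equal groups of genes by GC to -0.19 in the richest.

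Cell type markers also differed between WT and KO ECs. Endothelial markers summed to 3097 to 4509 CPM in WT and 5409 to 6542 CPM in KO, with 4 of 10 higher and 1 lower. Macrophage markers summed to 487 to 651 CPM in WT and 851 to 1336 CPM in KO, with 5 of 10 higher, and fibroblast markers to 2334 to 4394 CPM in WT and 5733 to 6613 CPM in KO, with 3 of 6 higher. Smooth muscle markers summed to 3288 to 6428 CPM in WT and 1060.1 to 3632 CPM in KO, with 2 of 6 lower. Cardiomyocyte markers summed to 125 to 509 CPM in WT and 10.8 to 14.3 CPM in KO, with 9 of 10 lower, and none of these markers was at 0 in all libraries. Their part in the Slc39a14, Tfrc and Aco1 values, and in those of the other iron genes, was not tested.

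**Figure D2:**
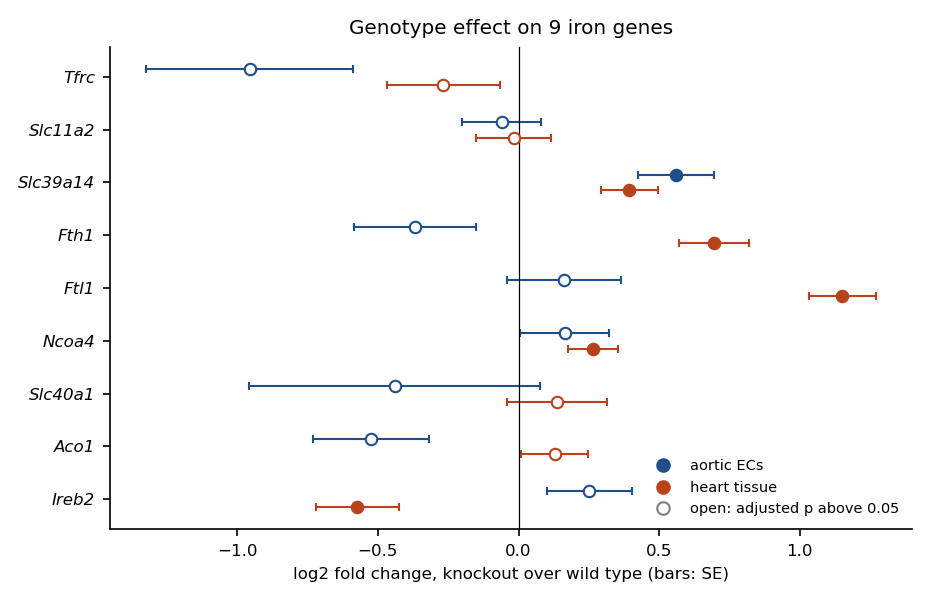
Log2 fold change of KO over WT for 9 iron genes in ECs (blue) and heart tissue (orange), with SE as bars; filled points have an adjusted p of at most 0.05 by edgeR. Ftl1 (1.15) and Fth1 (0.69) are filled and to the right in the heart, while in ECs only Slc39a14 (0.56) is filled.

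Whether the genotype effect differed between tissues was tested as an interaction over all 13 libraries, the value being the effect in the heart minus that in ECs. It was 1.10 for Fth1 (SE 0.25, adjusted p = 0.00522), 1.03 for Ftl1 (SE 0.22, adjusted p = 0.00450), 0.69 for Aco1 (SE 0.24, adjusted p = 0.0469) and -0.78 for Ireb2 (SE 0.23, adjusted p = 0.0210) by edgeR's quasi-likelihood test. These were 3 genes with a higher and 1 with a lower effect in the heart out of 9, beside 16.2% higher and 12.7% lower among all 15938 genes, and the median was 0.61 beside 0.03. Tfrc (0.73, SE 0.44), Slc40a1 (0.61, SE 0.56), Ncoa4 (0.14, SE 0.17), Slc11a2 (0.09, SE 0.21) and Slc39a14 (-0.12, SE 0.16) did not pass. With an offset for length and GC content Fth1 (0.57, adjusted p = 0.0691) and Ftl1 (0.20, adjusted p = 0.44) no longer passed, Tfrc did (1.77, adjusted p = 0.0190, the lowest of 23 alternatives), and Ireb2 turned to 0.76 (adjusted p = 0.00801, beside 0.00549 to 0.0781 over 23 alternatives). The Ireb2 call was lost without EC WT 1, KO 2 or KO 3 or heart KO 2. The Aco1 call was lost under 14 of 23 alternatives (adjusted p up to 0.166), 11 of which left out 1 library, any but heart WT 2 and EC WT 3.

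The ratio of ferritin chains did not overlap between genotypes in either tissue, though 3 ECs against 3 cannot reach a p of 0.05. The ratio of Ftl1 to Fth1 TPM within a library was 0.550 ± 0.035 in WT and 0.795 ± 0.041 in KO ECs (SD, n = 3 each), with no overlap (exact permutation test, two-sided p = 0.1, the smallest that 3 against 3 allows). In hearts it was 0.129 ± 0.010 in WT and 0.176 ± 0.006 in KO (n = 4 and 3), again with no overlap (exact permutation test, two-sided p = 0.0286, the smallest possible). In ECs neither chain passed alone, with log2 fold changes of -0.37 for Fth1 and 0.16 for Ftl1. The ratio of Aco1 to Ireb2 TPM was 6.23 ± 1.92 in WT and 3.66 ± 0.71 in KO ECs (exact permutation p = 0.2), and 1.20 ± 0.23 in WT and 1.98 ± 0.35 in KO hearts (exact permutation p = 0.0286). Both ratios were chosen after the values were seen, and the 4 tests were not adjusted for each other. Ftl1 and Fth1 differ in GC content (percentiles 90.3 and 61.0). Aco1 and Ireb2 differ in both length (percentiles 32.3 and 87.2) and GC content (percentiles 56.3 and 2.24). The part of length and GC content in either ratio was not tested.

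**Figure D3:**
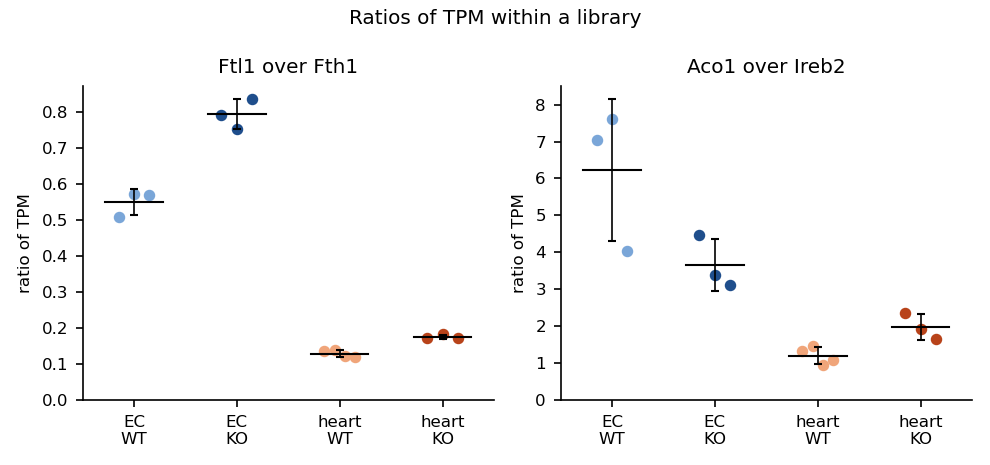
Ratio of TPM within each library (points) for Ftl1 over Fth1 and for Aco1 over Ireb2, with group mean (line) and SD (bar) and linear axes from 0. The Ftl1 to Fth1 ratio averages 0.550 in WT and 0.795 in KO ECs, and 0.129 in WT and 0.176 in KO hearts, with no overlap of genotypes in either tissue.

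By counts, the hairpin was on nearly all ferritin, ferroportin and transferrin receptor RNA in both genotypes. Transcripts with the fully paired hairpin held at least 96.7% of Tfrc counts and over 99% of Fth1, Ftl1 and Slc40a1 counts in each library. None of the 8 genotype comparisons of this share passed by exact permutation test (adjusted p of 1). With this few libraries no such comparison, by counts or by TPM, could have passed after adjustment over 8. The test therefore cannot decide whether these shares differed between genotypes. The Slc40a1 share was 100% in each EC library, which left no difference to test. By TPM the Tfrc share was 88.6% to 98.1% in ECs, and in hearts it was 94.3% to 97.4% in WT and 98.2% to 100% in KO, with no overlap (exact permutation p = 0.0286, the smallest possible, and 0.229 after adjustment over 8 comparisons). Slc11a2 is made as transcripts with and without the hairpin, and the share of counts on the hairpin form varied. It was 33.4%, 28.9% and 27.1% in WT ECs and 35.2%, 35.8% and 44.5% in KO ECs. In hearts it was 55.8%, 60.1%, 59.9% and 55.8% in WT and 52.8%, 51.5% and 48.8% in KO. The share was higher in KO than in WT ECs and lower in KO than in WT hearts, with no overlap in either tissue. The exact permutation p was 0.1 in ECs and 0.0286 in hearts, each the smallest possible, and 0.5 and 0.286 after adjustment over 10 comparisons. With this few libraries neither difference could have passed after that adjustment, so the test cannot decide on them. By TPM the genotypes overlapped in both tissues, with exact permutation p of 0.2 in ECs and 0.114 in hearts.

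**Figure D4:**
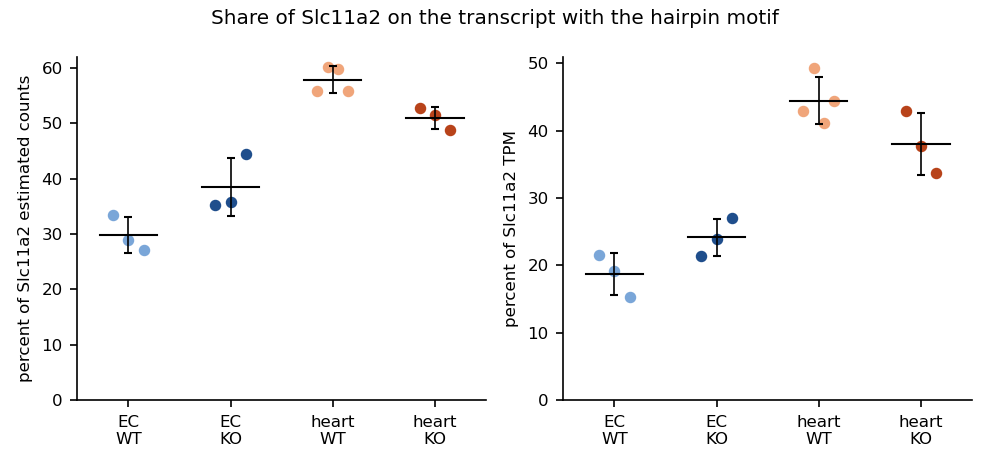
Percent of Slc11a2 estimated counts (left) and TPM (right) on the transcript with the hairpin motif, by library (points), with group mean (line), SD (bar) and linear axes from 0. By counts the KO ECs (35.2% to 44.5%) lie above the WT ECs and the KO hearts (48.8% to 52.8%) below the WT hearts, while by TPM the genotypes overlap.

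Hamp was near the limit of detection. Its estimated counts were 1, 11 and 1 in WT ECs, 0, 1 and 0 in KO ECs, 0, 1, 0 and 3 in WT hearts and 4, 2 and 16 in KO hearts. It did not pass the filter on low counts, so no test was made, and no fold is given. Hepatocyte markers summed to 0 to 0.104 CPM in WT and 0.734 to 5.24 CPM in KO hearts, and were highest in KO 3, the heart with most Hamp. Among ECs WT 2 had most Hamp, but its hepatocyte sum was 0.301 CPM, below the 0.865 CPM of WT 3. WT 2 was the highest EC library for summed cardiomyocyte (509 CPM), erythroid (3681 CPM) and lymphocyte (34.7 CPM) markers. In hearts the cardiomyocyte sums overlapped, at 54490 to 59400 CPM in WT and 53974 to 58906 CPM in KO. The part of these cell types in the Hamp values was not tested. The other hepcidin gene, Hamp2, shares 19.6% of Hamp's 31-base words and had at most 22 counts in any library.

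Near-identical copies took few reads from ferritin. A total of 54.5% of the 31-base words of Ftl1 occur in other genes, and 5 copies on other chromosomes, Ftl1-ps1, Gm15590, Ftl2-ps, Ftl1-ps2 and Gm12164, share at least 20% of their words with it. They held 0.0185% to 0.462% of the summed Ftl1 and copy counts. Ftl1-ps1 held most of these, at 2.19 to 2.66 CPM in WT ECs and 0.6253 to 1.10 CPM in KO ECs. Fth1-ps held at most 0.0129% of the Fth1 sum and Ncoa4-ps at most 0.400% of the Ncoa4 sum. Reads that fit both a gene and its copy were split by the authors' pseudoalignment, so the copy values are uncertain, and summing the copies into each gene changed no call of the 9 genes.

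The other iron genes were described with 60 genes in 7 lists, on which no list test was made. These lists too were chosen with earlier results of these data known. In KO hearts 18 of 51 tested were higher and 4 lower, with a median log2 fold change of 0.16 beside -0.01 over all genes. In KO ECs 4 of 54 were higher and 7 lower, with a median of -0.28 beside -0.02. The interaction was higher in the heart for 25 and lower for 3 of 54. The background percentages given above for each comparison apply here.

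Genes of mitochondrial iron import and iron-sulfur cluster assembly were called higher in KO hearts for 8 of 15 and lower for none. Among all genes, 17.2% were called higher and 16.2% lower. The 8 included the ferredoxin Fdx2 (log2 fold change 1.03), the scaffold Iscu (0.82) and Lyrm4 (0.68), which stabilizes the cysteine desulfurase. In ECs 3 of the 15 were lower and none higher, beside 8.06% lower and 10% higher among all genes. The 3 included the transporter Abcb8 (-0.82) and Iscu (-0.65). The interaction passed for 11 of the 15, all with the higher effect in the heart, beside 16.2% higher among all genes. Iscu was among the 11 (1.51, adjusted p = 4.63e-04 by edgeR). Fdx2 shares 71.6% of its words with other genes, so its value is uncertain. Short transcripts as a class were higher in KO hearts and long ones lower. The values of these 15 genes, and of the other listed iron genes below, are given without the offset for length and GC content.

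Among importers and transferrin cycle genes, 3 of 12 were higher in KO hearts and none lower, beside 17.2% and 16.2% of all genes. Lcn2, which binds iron-loaded siderophores, was at 0.744 to 1.14 CPM in WT and 2.69 to 3.39 CPM in KO hearts (log2 fold change 1.52), and transferrin, Trf, rose by 0.51. In ECs Steap1, a metalloreductase, was higher (2.41) at under 0.6 CPM in each library, while the ferric reductase Cybrd1 (-3.11) and the metal importer Slc39a8 (-1.08) were lower, of 14 tested. Cybrd1 was at 3.29 to 13.6 CPM in WT and 0.736 to 1.11 CPM in KO ECs. Of the 5 tested chaperones and turnover genes, Bola2 (0.99) and Glrx3 (0.50) rose and Herc2 (-0.73) fell in KO hearts, and none passed in ECs. By TPM the Herc2 mean was 4.43 in WT and 3.36 in KO hearts.

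Of the sensing and hepcidin control genes, Bmp6 (0.48) and Hfe (0.42) were higher in KO hearts. In KO ECs Hfe (0.52) was higher and the coreceptor Hjv (-2.49) and Neo1 (-1.22) were lower. Hjv was at only 1.03 to 1.34 CPM in WT and 0.0736 to 0.283 CPM in KO ECs. Its mean was 0.693 TPM in WT ECs and 87.4 TPM in WT hearts. Cardiomyocyte markers were also lower in KO ECs, and their part in the Hjv value was not tested. Among heme and hemoglobin genes, haptoglobin, Hp (2.94), and the heme transporter Slc48a1 (0.51) were higher and the receptor Lrp1 (-0.48) lower in KO hearts. Slc48a1 shares 79.0% of its words with other genes and is therefore uncertain. By TPM the Lrp1 mean was instead higher in KO hearts, at 11.2 beside 8.83 in WT, so its direction depended on the scaling. Hp was at 0 to 0.623 CPM in WT and 2.48 to 3.14 CPM in KO hearts. Summed adipocyte markers were at 0 to 2.63 CPM in WT and 3.03 to 5.47 CPM in KO hearts. Summed hepatocyte markers were at 0 to 0.104 CPM in WT and 0.734 to 5.24 CPM in KO hearts. The part of either cell type in the Hp value was not tested. The scavenger receptor Cd163 (1.44), which is also 1 of the macrophage markers, was the only gene of that list called in ECs. Of the 2 tested ferroxidases, ceruloplasmin, Cp (0.91), was higher in KO ECs and neither passed in the heart. Of 4 other mRNAs known to carry the element, Alas2 (1.69), also an erythroid marker, was higher in KO hearts. Cdc42bpa (-0.57) and Epas1 (-0.42) were lower in KO hearts, and none of the 4 passed in ECs. By TPM the means in WT and KO hearts were 7.36 and 6.31 for Cdc42bpa and 41.5 and 38.7 for Epas1.

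**Figure D5:**
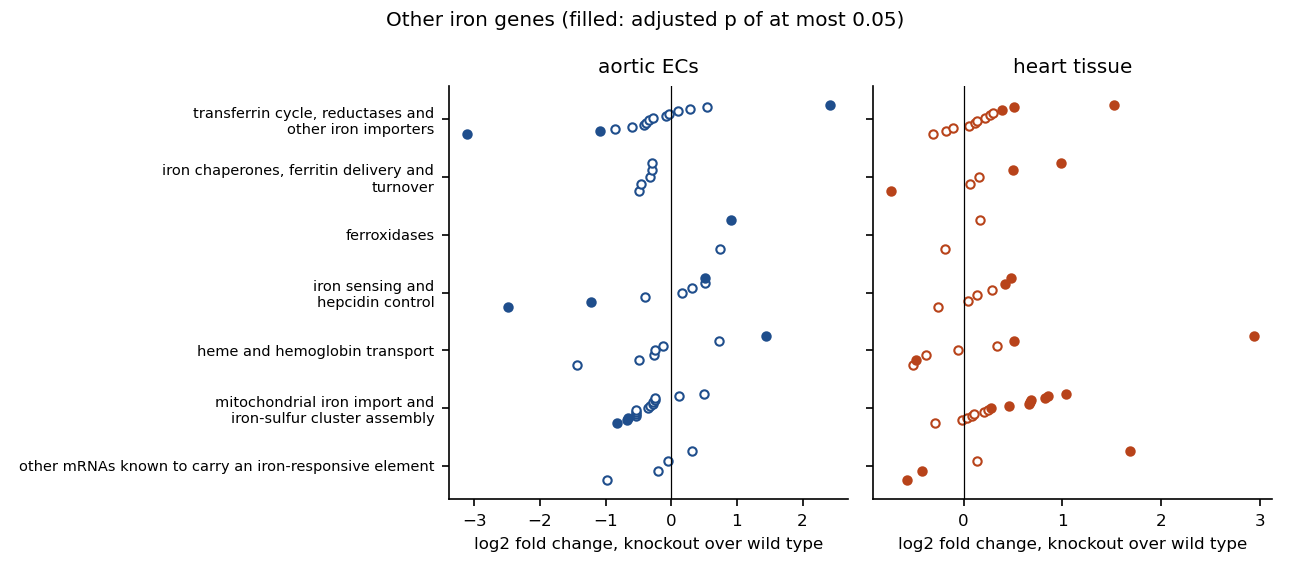
Log2 fold change of KO over WT for the other iron genes by list, in ECs (left) and heart tissue (right), 1 point a gene, filled where the adjusted p was at most 0.05 by edgeR; the horizontal scales differ. In the heart 8 of 15 mitochondrial and iron-sulfur cluster genes are filled and above 0, and in ECs 3 of 15 are filled and below 0.

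Over the 13 libraries, log2 CPM of Tfrc followed that of Nos2 (Pearson r = 0.98), Dcaf6 (0.98) and Pitpnc1 (0.97) most closely among 11232 genes. Fth1 was closest to Bola1 (0.98), Babam1 (0.95) and Bloc1s5 (0.95), and genes close to Slc40a1 included Mtrnr2l7 (0.93) and Car7 (0.93). These values are descriptions over libraries of 2 tissues, which share the tissue difference.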

How the data were processed

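The authors pseudoaligned 100-base paired reads from oligo-dT directional libraries with Kallisto v0.44.0, default parameters, 1 library at a time. The methods name GENCODE M32 (GRCm39); the processing notes list mm10 and GRCh38.p13. The deposited files hold estimated counts (expected counts per transcript, not normalized) and TPM made by the authors, which correct for effective length and sum to the same total in each library. Default settings ignore strand, so overlapping genes on opposite strands can share reads.

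Transcripts were assigned to GENCODE M39 genes by identifier without version (115140 of 118489, 97.2%; 0.755% to 1.01% of counts were unmatched), summed per gene and rounded. Genes kept by filterByExpr (minimum count 10) were scaled by TMM and tested with edgeR 4.0.16's quasi-likelihood F-test in R 4.3.3, within a tissue for genotype and over 13 libraries for the interaction. A gene was called at 0.05 or less after Benjamini-Hochberg adjustment. DESeq2 1.42.0, other scalings, filters, count definitions, an offset for length and GC content, a replicate block and the omission of each library were alternatives. Shares and ratios were compared by exact permutation tests. The script was tested on simulated data: of 200 genes changed by a log2 value of 1, 88 of 200 were recovered in ECs and 168 of 200 in hearts.

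The members and lists were chosen with earlier results of these data known. All 10 genes are named; of the 60 others, up to 4 called genes per list and tissue by size; the targeted gene; copies sharing at least 20% of their 31-base words; and the 3 genes most like Tfrc, Fth1 and Slc40a1. Among the named genes, 2 are not reported here.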

Additional observations from a re-analysis of the deposited data

Results flagged for a closer look

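The total of heart WT 1, 7268626 estimated counts, was far below the other 3 WT hearts by Dixon's test; about 1 in 20 such groups of 4 would be flagged by chance, and 13 groups were looked at. Without this library, 4 of the 9 tested iron genes were called in the heart, Ncoa4 being lost.

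The genotype effect differed between heart and ECs by the interaction test for Fth1 (1.10), Ftl1 (1.03), Aco1 (0.69) and Ireb2 (-0.78), on the log2 scale.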

How the results depend on the processing

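Counts of called iron genes depended on the setting. In ECs 1 was called, against 2 with DESeq2, 3 with the offset for length and GC content, 3 with all 13 libraries in 1 fit, and 0 to 2 when 1 library was left out (0 without EC WT 2, KO 1, KO 2 or KO 3, and 2 without EC WT 3). In hearts 5 were called, against 3 with length-scaled TPM and 4 to 5 with 1 library left out. The interaction called 4, against 2 with the offset and 2 to 5 with 1 library left out (2 without EC KO 2 or KO 3, and 5 without EC WT 3). The contrast of wild-type tissues called 8, and 6 to 8 with 1 library left out. Over all genes, ECs gave 2766 calls, against 4319 with all 13 libraries in 1 fit and 638 to 3596 with 1 library left out, and hearts gave 4618, against 2888 without KO 2. The cause was not tested. Of the called genes, 55.4% were higher in KO ECs (64.8% by upper quartile, 44.6% with all 13 libraries in 1 fit), 56.1% had a higher interaction (73.7% by library size alone, 46.0% by upper quartile) and 47.9% were higher in wild-type hearts than ECs (17.4% by library size alone).

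Some log2 fold changes changed sign, and the cause was not tested. With the offset, these were Slc11a2 (3.47e-04) and Ireb2 (-0.87) in ECs, Slc11a2 (-0.16) and Ireb2 (0.76) in the interaction and Fth1 (0.13) between tissues. By upper quartile, they were Slc11a2 in ECs (0.010) and in the interaction (-0.019). By library size alone, they were Slc11a2 in hearts (0.24), Slc39a14 in the interaction (0.047) and Ireb2 between tissues (-0.0046), and with length-scaled TPM, Slc11a2 in hearts (0.024). With 1 library left out, EC values ran from -0.18 to 0.022 for Slc11a2, -0.0054 to 0.25 for Ftl1 and -0.77 to 0.55 for Slc40a1. Heart values ran from -0.11 to 0.12 for Slc11a2 and -0.017 to 0.30 for Slc40a1, and interaction values from -0.0022 to 0.24 for Ncoa4 and -0.36 to 0.95 for Slc40a1. The difference in the share of hairpin transcripts ran from -1.03 to 0.37 percentage points for Tfrc in ECs, -0.024 to 0.0056 for Fth1 in hearts and -0.049 to 0.039 for Ftl1 in ECs.

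The labels tie same-numbered WT and KO samples by the number alone. Their deviations from group means correlated at -0.0044 to 0.158, and 4 of 6 EC and 3 of 6 heart samples correlated best with their own number. Same-numbered ECs and hearts of 1 genotype correlated at -0.050 to 0.103. Whether same-numbered samples belong together cannot be told from these values. With the number as a replicate block, 1 iron gene was called in ECs, 5 in hearts, 4 in the interaction and 7 between wild-type tissues, and over all genes 2716 in ECs and 2899 in hearts. In hearts Tfrc then passed (-0.45, adjusted p = 0.0473) and Ncoa4 did not (adjusted p = 0.107). Between tissues Slc40a1 passed (adjusted p = 0.0112) and Fth1 (0.109) and Ncoa4 (0.0741) did not. At the depth and replicate number of these libraries, the simulation recovered 88 of 200 changed genes in ECs, 168 of 200 in hearts and 59 of 200 in the interaction.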
